A study of Mus musculus with 71 samples.

Results

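The comparison described here set HOCl-induced mice given the anti-galectin-3 antibody E07 against HOCl-induced mice given no antibody, gene by gene, in terminal whole blood. Its members were the 24 mice titled HOCL with E07 or HOCL alone, 12 of each, out of the 71 mice of the series. Of these 24, 23 had normalised values, because HOCl mouse 8 was deposited with counts only. The mice were female Balb/c AnNRj animals, 6 weeks old when the experiment began. In both groups HOCl (hypochlorous acid, an oxidant that induces skin and lung fibrosis and serves as a model of systemic sclerosis) was injected intradermally on 5 days per week for 6 weeks. E07 mice also received the E07 monoclonal antibody subcutaneously at 20 mg/kg, from the day before the first HOCl injection and every 5 days until euthanasia. The 11 control mice, injected with PBS in place of HOCl, are given beside both groups as the background level. The experimental groups were housed in separate cages, so that cage and treatment cannot be told apart, and no HOCl mice given an isotype antibody were analysed here. Each library came from a separate mouse.

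Whole blood holds red cells, white cells and platelets in very unequal numbers. Mature mouse red cells have no nucleus and little RNA, and the red cell transcripts of blood come mainly from reticulocytes, the young red cells just released from the marrow or spleen, which still carry mRNA for membrane proteins, heme enzymes and the machinery that clears their organelles. White cell transcripts come from B and T lymphocytes, natural killer (NK) cells, monocytes, neutrophils and the rarer eosinophils and basophils. Poly A selection and globin depletion preceded sequencing, so the globin mRNAs that dominate untreated blood RNA were largely taken out of these libraries. In such bulk samples, fewer cells of a type and less RNA per cell cannot be told apart, and every level is a share of the library.

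Between 11932855 and 15222080 counts on genes were available per mouse in these 2 groups. The mean total differed by -0.01 on the log2 scale (E07 minus HOCl, two-sided permutation test with 100000 resamples, p = 0.706). The markers of blood cells fixed for the lists below were present, with 93 of 97 red cell genes and 150 of 163 white cell genes in the table of normalised values. One library stood apart. HOCl mouse 7 had the highest share of counts on red cell genes of the 24 mice and a size factor of 0.464, whereas the size factors of the 11 other HOCl mice and 12 E07 mice lay between 0.777 and 1.54. A size factor is the number by which the counts of a library are divided so that most genes are level between libraries. The total numbers of changed genes below are therefore also given without HOCl mouse 7, and the list counts that changed without it are given at the end.

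With limma on the deposited vst values (variance-stabilized counts on a log2-like scale, 12 E07 and 11 HOCl mice), 92 of 10508 genes were higher and 737 were lower in E07 than in HOCl blood when both limits were applied, an FDR (false discovery rate after Benjamini-Hochberg adjustment) up to 0.05 and a change of 1.3-fold or more. The background shares against which each list is read are thus 0.876% of genes called higher and 7.01% called lower. On the vst scale, which understates changes of genes with few counts, the decreases were the larger changes. Their log2 fold changes ran from -0.38 to -2.06 with a median of -0.64, and 160 genes fell at least 2-fold. The increases ran from 0.38 to 0.67 with a median of 0.43, and 0 genes rose 2-fold on that scale. Without HOCl mouse 7, limma called 80 genes higher and 702 lower. On the counts of 12 and 12 mice, edgeR's quasi-likelihood test called 361 of 12793 genes higher (2.82%) and 930 lower (7.27%), or 300 and 869 without HOCl mouse 7. It called 79 of the 92 higher and 707 of the 737 lower genes of limma again in the same direction. Some of these rose more than 2-fold by edgeR, such as AU041133 (1.22, FDR 0.0135), Rhebl1 (1.18, FDR 0.000812) and P2ry14 (1.17, FDR 0.0257). Some decreases were also larger by edgeR, such as Tmod1 (-2.32, against -1.84 on the vst scale). Of the 92 higher genes, 35 were immunoglobulin genes or members of the B cell, plasma cell or MHC class II lists and 0 belonged to a red cell list. Of the 737 lower genes, 70 belonged to a red cell list, 15 to the platelet list and 10 to the list of interferon-stimulated genes, and 619 belonged to none of the 26 lists.

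**Figure D1:**
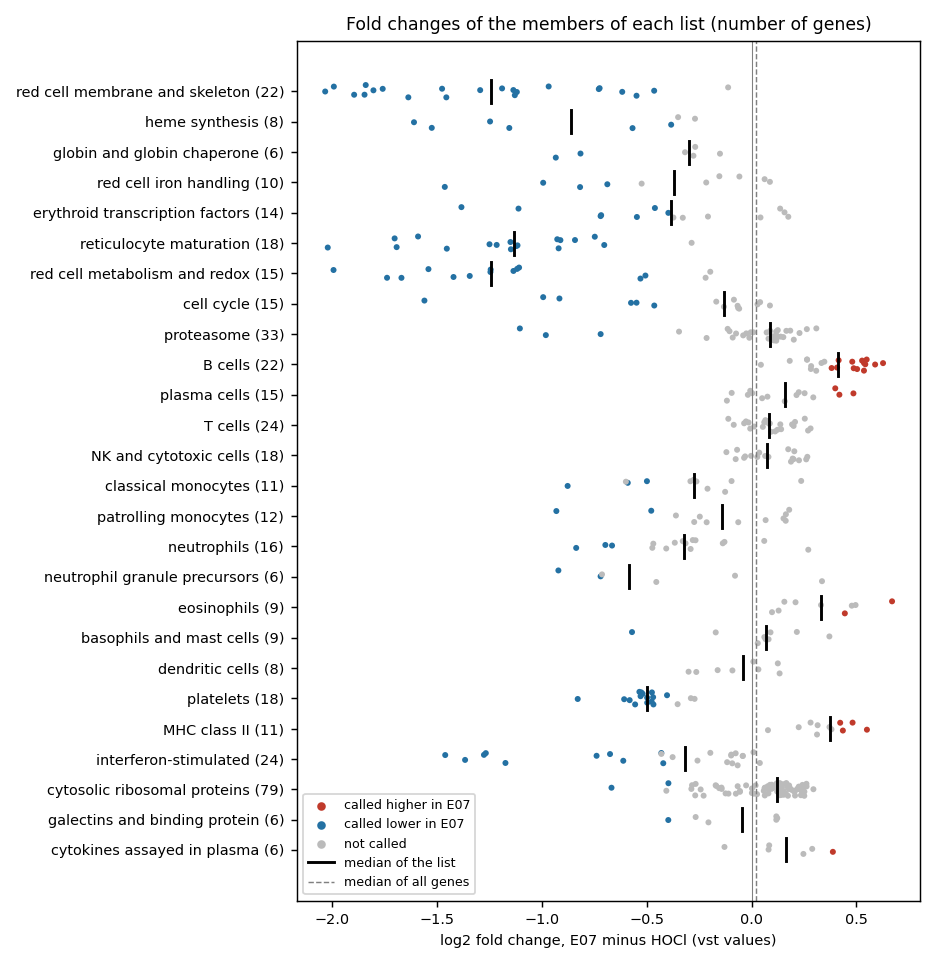
Log2 fold change (E07 minus HOCl, limma on vst values, horizontal axis) of each gene of the 26 lists, with the number of genes in brackets; red points were called higher, blue points lower and grey points not called, black bars mark list medians and the dashed line the median of all genes (0.02). Of the red cell genes, 70 of 93 were called lower, while 13 of 22 B cell genes were called higher and 0 of 24 T cell genes passed.

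The groups were fully separated for few genes. In 5 genes, or 0.0476% of those tested, the 12 E07 values lay all above or all below the 11 HOCl values, and apart from Serpinb1a these genes were named after their values were seen. Tubb2a, a beta-tubulin, had vst values of 10.15 to 11.07 in HOCl mice (median 10.58) and 9.17 to 9.85 in E07 mice (median 9.55), with 9.63 to 10.93 in control mice. It fell by 1.01 on the log2 scale (SE 0.11, FDR 4.54e-06, limma). The histone genes H2bc4 (median 12.44 in HOCl and 11.54 in E07 mice) and H1f2 (10.57 and 9.93) also fell without overlap. Arpc5l, a subunit of the Arp2/3 actin-branching complex, rose without overlap from a median of 9.86 to 10.26, and Serpinb1a, an inhibitor of granule proteases, from 9.81 to 10.30.

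Promoters are shown for the first 3 raised and 3 lowered genes, ordered by fold change, that have an entry in the sequence table, because these genes carry the opposite ends of the comparison. Each window runs from 250 bases before to 50 bases after the transcription start, as given by RefSeq for GRCm38.p6. It is printed 5′ to 3′ on the strand of the gene. Each window matched GRCm39 exactly at a single place on the chromosomes of these genes, and other chromosomes were not searched. Capitals mark GATA motifs (AGATAA or TGATAA, or either of these with G as its last base, bound by erythroid and eosinophil GATA factors), CACCC boxes (CCNCNCCC, bound by Klf1 and related factors) and the PU.1 motif (GAGGAAGT), searched on both strands.
Ccr3, higher, chr9:123821758-123822057, plus strand: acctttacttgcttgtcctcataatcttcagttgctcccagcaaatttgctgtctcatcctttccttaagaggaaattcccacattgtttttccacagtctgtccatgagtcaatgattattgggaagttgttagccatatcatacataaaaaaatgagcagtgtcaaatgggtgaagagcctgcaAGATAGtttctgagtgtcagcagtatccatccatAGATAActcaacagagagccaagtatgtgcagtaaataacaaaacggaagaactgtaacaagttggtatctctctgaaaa
Id3, higher, chr4:135870883-135871182, plus strand: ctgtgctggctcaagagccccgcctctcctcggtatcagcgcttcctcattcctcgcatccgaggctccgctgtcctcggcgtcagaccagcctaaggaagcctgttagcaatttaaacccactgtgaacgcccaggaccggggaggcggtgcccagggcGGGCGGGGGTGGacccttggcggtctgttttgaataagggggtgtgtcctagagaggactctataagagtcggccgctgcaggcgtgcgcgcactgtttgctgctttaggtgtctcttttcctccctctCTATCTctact
Tnfrsf13c, higher, chr15:82108532-82108831, minus strand: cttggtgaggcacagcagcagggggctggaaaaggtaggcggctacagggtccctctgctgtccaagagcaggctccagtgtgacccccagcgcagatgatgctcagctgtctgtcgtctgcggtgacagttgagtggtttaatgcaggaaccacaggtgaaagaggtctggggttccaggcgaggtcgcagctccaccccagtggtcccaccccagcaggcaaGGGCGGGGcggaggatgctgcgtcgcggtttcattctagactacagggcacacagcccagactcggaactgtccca
Apol11b, lower, chr15:77527437-77527736, minus strand: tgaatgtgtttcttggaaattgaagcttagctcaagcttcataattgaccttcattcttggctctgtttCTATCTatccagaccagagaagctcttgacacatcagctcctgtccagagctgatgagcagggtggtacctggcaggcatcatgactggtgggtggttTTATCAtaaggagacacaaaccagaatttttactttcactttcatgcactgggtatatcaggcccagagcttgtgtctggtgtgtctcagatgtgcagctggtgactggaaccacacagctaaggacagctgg
Trim10, lower, chr17:37180216-37180515, plus strand: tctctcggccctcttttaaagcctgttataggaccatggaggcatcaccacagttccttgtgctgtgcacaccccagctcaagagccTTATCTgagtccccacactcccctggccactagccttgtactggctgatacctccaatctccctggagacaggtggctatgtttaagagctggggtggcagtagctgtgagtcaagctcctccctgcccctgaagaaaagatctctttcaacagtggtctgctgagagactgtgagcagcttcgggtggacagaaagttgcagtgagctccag
Sptb, lower, chr12:76757272-76757571, minus strand: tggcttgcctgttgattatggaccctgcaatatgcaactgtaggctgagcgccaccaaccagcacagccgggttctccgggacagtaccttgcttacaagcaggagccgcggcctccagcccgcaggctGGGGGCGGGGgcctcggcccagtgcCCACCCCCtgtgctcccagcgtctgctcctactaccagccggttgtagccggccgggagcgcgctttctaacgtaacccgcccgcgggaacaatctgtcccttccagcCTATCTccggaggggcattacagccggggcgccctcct
The Ccr3 and Apol11b windows held 2 GATA motifs each, the Id3, Trim10 and Sptb windows 1 each and the Tnfrsf13c window 0. By the pattern CCNCNCCC, the Sptb window held 3 CACCC boxes, 2 of which overlap each other, the Id3 window 2 overlapping ones and the Tnfrsf13c window 1. The match in the Tnfrsf13c window, GGGCGGGG, has no CACCC on either strand, while stretches with CACCC in that window did not match the pattern. No PU.1 motif was found in these 6 windows. Over all 32851 windows of the table, 29.8% held a GATA motif, 49.5% a CACCC box and 3.2% a PU.1 motif. Of the 10442 windows of genes tested, 19.5% held a GATA motif, compared with 22.8% of the 772 windows of genes called lower, 31.7% of the 63 windows of genes called higher, 31% of the 100 windows of red cell list genes and 31.6% of the 19 windows of B cell list genes. A CACCC box was present in 66.8% of the windows of genes tested, in 69% for genes called lower and in 49.2% for genes called higher. These shares describe letters in the windows and were not tested.

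Genes of the red cell membrane and its skeleton were lower in E07 blood throughout the list. All 22 had a negative log2 fold change and 21 were called lower (20 to 21 when any 1 mouse was left out), with a median of -1.24. Slc4a1, the anion exchanger that anchors the membrane to its skeleton (GRCm39 chromosome 11, 102239650 to 102257029), had vst values of 12.91 to 16.07 in HOCl mice (median 14.57), 11.41 to 13.79 in E07 mice (median 12.20) and 10.89 to 14.15 in control mice (median 12.94). Its values were below the HOCl median in all 12 E07 mice and below the lowest HOCl mouse in 7 of 12. The gene fell by 2.03 on the log2 scale (SE 0.30, FDR 0.000115), which is 4.1-fold. Sptb encodes a spectrin chain of the skeleton, Ank1 the ankyrin that ties it to Slc4a1, and Epb41, Epb42 and Tmod1 proteins of the junctions. Sptb fell from a median of 11.98 (10.25 to 12.82) to 9.53 (8.41 to 11.12), a log2 fold change of -1.99. The values were -1.64 for Ank1, -1.76 for Epb41, -1.80 for Epb42, -1.84 for Tmod1 and -1.85 for Mpp1, a scaffold protein of the same membrane. The blood group gene Kel fell by 1.48. The member that was not called was Slc2a1, a glucose transporter that many cells use (log2 fold change -0.11, FDR 0.354).

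Most enzymes of the heme pathway, which runs from glycine and succinyl-CoA to heme, were lower. All 8 enzymes had a negative log2 fold change and 6 were called lower (median -0.86, 4 to 7 called when any 1 mouse was left out). Alas2, the red cell form of the entry enzyme, took 5.81% to 12.0% of all counts in HOCl mice, 3.40% to 6.65% in E07 mice and 2.39% to 7.36% in control mice. Its vst value fell by 1.25 on the log2 scale (SE 0.21, FDR 0.00025), and 9 of 12 E07 mice lay below the lowest HOCl mouse. The largest decrease of the list was in Urod (-1.61), an enzyme of the middle of the pathway, and Fech, which inserts the iron, fell by 1.16. Cpox (-0.27, FDR 0.117) and Ppox (-0.35, FDR 0.053), the steps before Fech, were not called by limma, whereas edgeR called Ppox lower on the counts (-0.47, FDR 0.0232).

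Of the 6 globin genes in the table, all had a negative log2 fold change (median -0.30) and 2 were called lower, the theta-globins Hbq1a (-0.82) and Hbq1b (-0.93). The major adult globins were not called, and their spread within each group was wide. Hbb-bs ran from 12.27 to 15.10 in HOCl mice (median 14.10) and from 12.10 to 16.21 in E07 mice (median 13.67) (log2 fold change -0.15, SE 0.38, FDR 0.834). The corresponding value of Hba-a1 was -0.32 (SE 0.43, FDR 0.67). These genes were depleted from the libraries, reads can be shared between near-identical copies, and together the globins held 0.0734% to 0.887% of the counts of E07 mice and 0.0775% to 0.364% of those of HOCl mice, with the highest share in E07 mouse 6. Of 10 genes of red cell iron handling, 4 were called lower. They were Glrx5 (-1.46) and Slc25a37 (-0.99), which build iron-sulphur clusters and carry iron into mitochondria, and the ferritin chains Fth1 (-0.69) and Ftl1 (-0.82), which store iron in many cell types. The calls of Fth1 (-0.18) and Ftl1 (-0.31) were lost when the libraries were scaled by their totals. Tfrc, the transferrin receptor of early erythroid cells, was not called (-0.15, FDR 0.793).

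Of the 14 transcription factors of the erythroid programme, 7 were called lower and 0 higher, with a median log2 fold change of -0.39. Klf1, which drives globin and membrane genes and is close to specific to erythroid cells, had 7.31 to 8.86 in HOCl mice (median 7.75) and 6.93 to 7.48 in E07 mice (median 7.15), and 9 of 12 E07 mice lay below all HOCl mice. It fell by 0.72 on the vst scale (SE 0.13, FDR 0.000411) and by 1.58 with edgeR on the counts, the vst scale compressing changes of genes with few counts (median 104.5 counts in HOCl and 52 in E07 mice). Nfe2 fell by 0.72 with 11 of 12 E07 mice below all HOCl mice. E2f2 (-1.38) and Lmo2 (-1.11) had the largest vst decreases of the list and Tal1 fell by 0.46. When the libraries were scaled by their totals, 3 of the 14 factors were called lower and 4 higher, beside 324 and 6561 of all 10508 genes. The calls of Nfe2 (-0.25) and Tal1 (-0.04) were lost under that scaling. Gata1, the central factor of the programme, fell by 0.40 on the vst scale (FDR 0.0134), but its log2 fold change was 0.02 when the libraries were scaled by their totals, and the call was lost without E07 mouse 4 or 10 or HOCl mouse 6.

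The genes of reticulocyte maturation, the stage in which young red cells lose their organelles, were lower almost as a whole. Of 18 genes, 17 were called lower (17 in each fit that left out 1 mouse), with a median of -1.14. Trim10, a RING protein of terminal erythroid cells (chromosome 17, 37180406 to 37188725), had 11.66 to 15.40 in HOCl mice (median 13.85), 10.54 to 12.78 in E07 mice (median 11.32) and 9.73 to 13.93 in control mice (median 11.82). It fell by 2.02 (SE 0.34, FDR 0.00025). Bcl2l1, which encodes the survival factor Bcl-xL, fell by 1.70, and Xpo7, a nuclear exporter used before enucleation, fell by 1.69. Ube2o, the ubiquitin ligase that removes ribosomes from reticulocytes, fell by 1.59 with 10 of 12 E07 mice below all HOCl mice. Trim58 (-0.91) and Bnip3l (-0.84), the receptor for the clearance of mitochondria, also fell. The call of Bnip3l was lost when the libraries were scaled by their totals (-0.34).

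Genes of red cell metabolism and defence against oxidants showed the same direction, with 13 of 15 called lower and a median of -1.24. Car2, carbonic anhydrase, fell by 1.99 (SE 0.34, FDR 0.000251), from a median of 13.47 (11.52 to 15.81) in HOCl to 11.07 (10.41 to 12.32) in E07 mice. Bpgm, which makes the 2,3-bisphosphoglycerate that lowers the oxygen affinity of hemoglobin, fell by 1.74, with 8 of 12 E07 mice below all HOCl mice. The peroxide-removing enzymes Cat (-1.42), Prdx2 (-1.25) and Gpx1 (-1.11) fell as well. Among the 15 lower genes with the largest fold change, those in no list included Apol11b, of the apolipoprotein L family (-2.06, SE 0.39, FDR 0.000572), Dhrs11, a short-chain dehydrogenase (-1.88), and Prxl2a, a peroxiredoxin-like gene (-1.72). Apol11b had 10 of 12 E07 mice below all HOCl mice, and its highest values were 13.11 in HOCl and 13.21 in control mice.

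Genes of dividing cells were mixed. Of 15 cell cycle genes in the table, 6 were called lower and 0 higher (median -0.13). Ube2c, which drives the exit from mitosis, fell by 1.56, Mki67 by 0.99 and Ccna2 by 0.92, whereas Pcna, a replication clamp, was not called (0.09, FDR 0.485). Of 33 proteasome genes, 3 were called lower, near the background share, namely Psmf1 (-1.11), Psmd4 (-0.98) and Psme4 (-0.72).

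Per mouse, the red cell lists together took 15.7% to 32.7% of all counts in HOCl mice (mean 22.8% ± 4.35, SD, n = 12), 11.1% to 19.95% in E07 mice (14.5% ± 2.91, n = 12) and 7.81% to 23.6% in control mice (15.1% ± 4.66, n = 11). Counting error was small beside this spread, the widest 95% Wilson interval being 0.0511 percentage points. In 8 of 12 E07 mice the share was below that of the lowest HOCl mouse, HOCl mouse 1. The E07 mice with the highest red cell shares were mice 6 and 3. The mean vst value of the reticulocyte list was 13.4 ± 0.61 (n = 11) in HOCl, 12.3 ± 0.41 (n = 12) in E07 and 12.3 ± 0.64 (n = 11) in control mice. As shares of the library, the red cell lists fell and the white cell lists rose, but the typical gene rose as well. With scaling by the total count, the median log2 fold change was 0.57 for the white cell lists and 0.49 for all genes. The white cell lists took 1.23% to 2.06% of counts in HOCl, 1.73% to 2.64% in E07 and 1.11% to 2.90% in control mice.

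**Figure D2:**
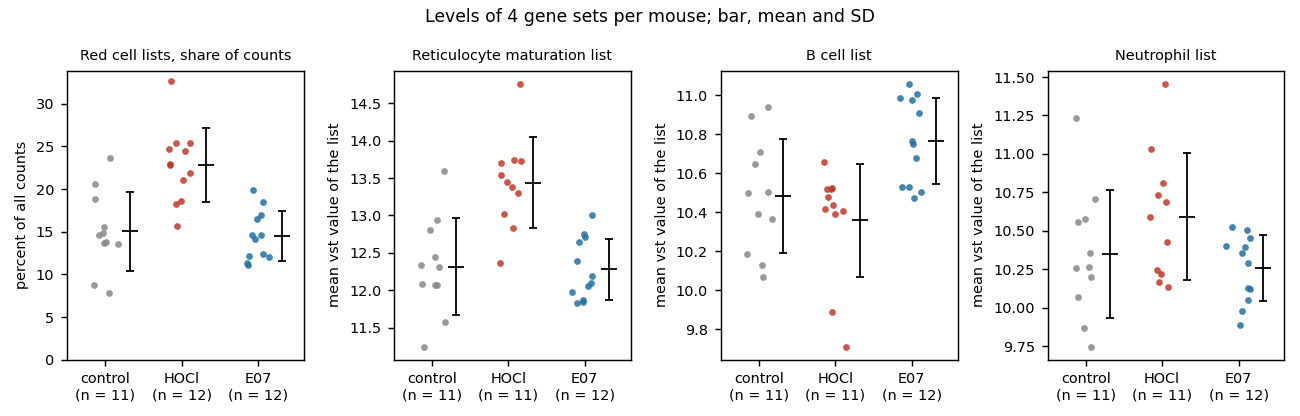
Share of all counts on genes of the red cell lists (left, percent) and mean vst values of the reticulocyte maturation, B cell and neutrophil lists (log2-like scale) in each control, HOCl and E07 mouse, with the mean and SD as a bar. In the red cell share 8 of 12 E07 mice lie below all HOCl mice, 8 of 12 lie above all HOCl mice in the B cell list, and 5 of 12 lie below all HOCl mice in the neutrophil list.

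The B cell list was the list with the largest share of genes called higher. All 22 members had a positive log2 fold change and 13 were called higher (10 to 13 when any 1 mouse was left out), with a median of 0.41, against 0.876% of all genes. Tnfrsf13c, the receptor through which the cytokine BAFF keeps mature B cells alive (chromosome 15, 82105944 to 82108580), had vst values of 8.52 to 9.68 in HOCl mice (median 9.19), 9.57 to 10.11 in E07 mice (median 9.76) and 8.88 to 10.03 in control mice (median 9.39). All 12 E07 mice were above the HOCl median and 7 above the highest HOCl mouse. The gene rose by 0.63 (SE 0.10, FDR 0.000189), which is 1.54-fold. Ms4a1, the surface protein CD20, ran from 10.20 to 11.87 in HOCl mice (median 11.47) and from 11.43 to 12.28 in E07 mice (median 11.90), a log2 fold change of 0.59 (SE 0.15, FDR 0.00744). Its lowest values were those of HOCl mice 12 and 7. The receptor chains Cd79a (0.54) and Cd79b (0.53), the IgD gene Ighd (0.54), the low-affinity IgE receptor Fcer2a (0.50), the inhibitory receptor Cd22 (0.49) and the kinase Blk (0.48) rose with them, and the calls of these 6 genes were lost with all 6 groups of the series in one fit. Ighm (0.28, FDR 0.102) and the lineage factor Pax5 (0.04, FDR 0.853) were not called. The mean vst value of the list was 10.4 ± 0.29 (n = 11) in HOCl, 10.8 ± 0.22 (n = 12) in E07 and 10.5 ± 0.29 (n = 11) in control mice. The red cell share fell in the same mice, and the part of that fall in the B cell values was not tested.

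**Figure D3:**
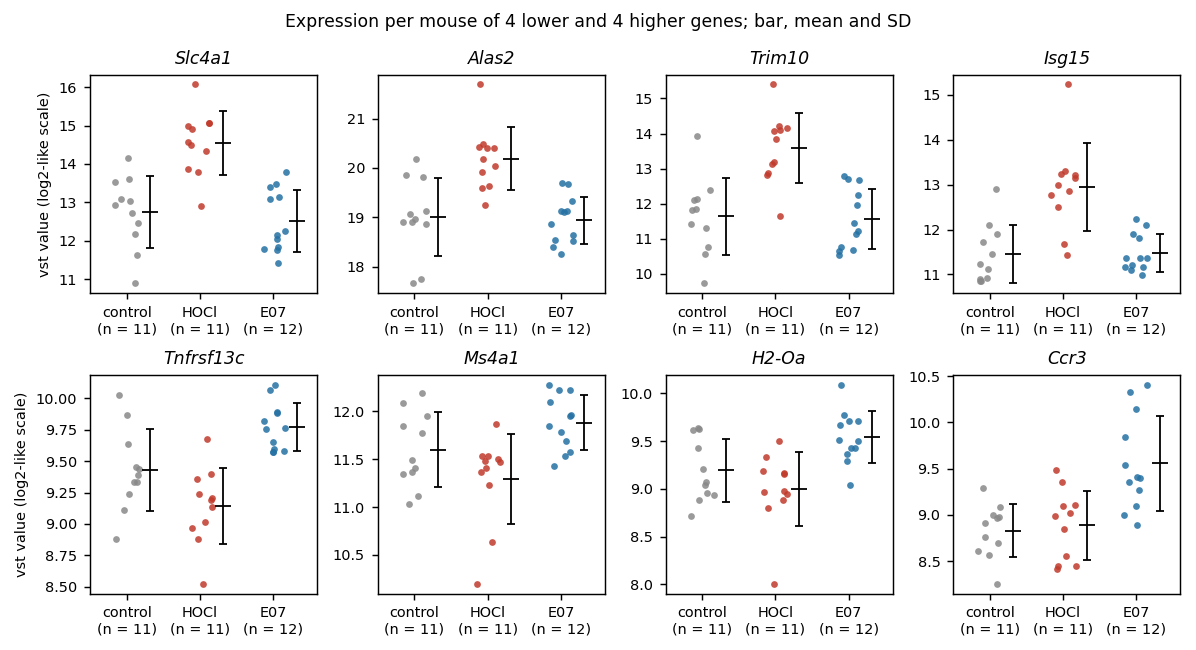
Vst values (log2-like scale) of 4 lower genes (upper row) and 4 higher genes (lower row) in each control, HOCl and E07 mouse, with the mean and SD as a bar beside the points. The E07 values of Slc4a1 (11.41 to 13.79) lie below the HOCl median in all 12 mice, and those of Tnfrsf13c (9.57 to 10.11) above it in all 12.

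Immunoglobulin and plasma cell genes were higher in part. Among the 15 higher genes with the largest fold change, Iglc2 (0.64, SE 0.12, FDR 0.000519) and Iglc3 (0.59) encode constant regions of lambda light chains, and Igkv6-17 (0.57) and Igkv1-122 (0.54) are kappa variable segments. Iglc2 had 9.54 to 10.62 in HOCl mice (median 10.44) and 10.47 to 11.30 in E07 mice (median 11.03), with 10 of 12 E07 mice above all HOCl mice. Igkv1-122 rested on a median of 2.5 counts in HOCl and 36.5 in E07 mice, and was not called by edgeR on the counts (FDR 0.0937). Of the 196 immunoglobulin genes recognised by their symbols, 18 were called higher, 0 lower, and 169 had a positive log2 fold change. By kind, the counts called higher were 10 of 95 kappa variable segments, 5 of 10 lambda genes, 1 of 74 heavy variable segments and 1 of 7 heavy constant genes, and this grouping by symbol was made after the values were seen. Segments of a family are near-identical and reads can be split between them, so values of single segments are uncertain. In the plasma cell list, 3 of 15 genes were called higher (1 without HOCl mouse 12). They were Igkc (0.42), Iglc1 (0.40) and Tnfrsf17 (0.49), the receptor BCMA of antibody-secreting cells, which had a median of 2 counts in HOCl and 23 in E07 mice and was not called by edgeR (FDR 0.0639). The call of Igkc was lost without HOCl mouse 12, and that of Iglc1 without HOCl mouse 12 or E07 mouse 3, 7 or 11. Jchain (0.29, FDR 0.189), which links secreted antibodies, and Xbp1 (-0.12, FDR 0.359), the factor of the secretory programme, were not called.

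The MHC class II list, which holds the molecules that present peptides to helper T cells and that B cells express strongly, had 11 of 11 positive log2 fold changes and 4 genes called higher (median 0.37). H2-Oa, a B cell modulator of peptide loading, rose by 0.55 (SE 0.13, FDR 0.00426), from a median of 8.97 (8.01 to 9.51) in HOCl to 9.51 (9.04 to 10.09) in E07 mice. H2-Aa, a chain of the class II molecule itself, rose by 0.48, and H2-Ea, which is in no list, by 0.60 (SE 0.13, FDR 0.00189). Cd74, the invariant chain, was not called (0.32, FDR 0.0775). Further genes among the 15 with the largest increase were Id3, an inhibitor of E-protein transcription factors in lymphocytes (0.64, SE 0.12, FDR 0.000574), Il4i1, an amino acid oxidase of antigen-presenting cells and B cells (0.61), and P2ry14, a receptor for UDP-sugars (0.56). Id3 had 7.23 to 8.67 in HOCl mice (median 8.17) and 8.36 to 8.98 in E07 mice (median 8.73), with 7 of 12 E07 mice above all HOCl mice.

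Eosinophil genes included Ccr3, which had the largest increase among genes called by limma on the vst scale. On the counts, edgeR gave 0.97 for Ccr3 and larger values for several other called genes, such as AU041133 (1.22), Rhebl1 (1.18) and P2ry14 (1.17). The 9 genes of the list had positive log2 fold changes and 2 were called higher (median 0.33). Ccr3, the eotaxin receptor of eosinophils (chromosome 9, 123822009 to 123831726), had 8.41 to 9.48 in HOCl mice (median 8.98), 8.89 to 10.41 in E07 mice (median 9.40) and 8.26 to 9.29 in control mice (median 8.91). It rose by 0.67 (SE 0.17, FDR 0.00832). The highest values were those of E07 mice 4, 11 and 1, and 5 of 12 E07 mice lay above all HOCl mice. Il5ra, the receptor chain for interleukin-5, rose by 0.45, whereas Siglecf, a further eosinophil surface marker, was not called (0.16, FDR 0.462). Of 9 basophil and mast cell genes, 0 were called higher and 1 lower, the histamine-forming enzyme Hdc (-0.57, FDR 0.0181). Fcer1a, the IgE receptor chain of basophils, had 0.37 (FDR 0.0229), under the 1.3-fold threshold.

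On the vst scale, neither direction was called for T cells, NK and cytotoxic cells or dendritic cells. Scaling by the total count, under which the median of all genes was 0.49, called 6561 of all 10508 genes higher. Under that scaling 23 of 24 T cell, 13 of 18 NK and cytotoxic and 2 of 8 dendritic cell genes were called higher. Of 24 T cell genes, 0 passed both thresholds with limma or edgeR, and 18 had positive log2 fold changes with a median of 0.09 and a range of -0.11 to 0.28. At an unadjusted p under 0.05, limma counted 5 of 24 T cell, 3 of 18 NK and cytotoxic and 2 of 8 dendritic cell genes. Among all 10508 genes it counted 2996 at that limit. DESeq2 called 0 genes of these 3 lists. The largest log2 fold change of the T cell list was that of Cd3g, a chain of the T cell receptor complex (0.28, SE 0.08, FDR 0.0194), whereas Cd3e (0.06, FDR 0.719) and Cd8a (0.09, FDR 0.498) were close to 0 on this scale. The 18 NK and cytotoxic genes had a median of 0.07 and a range of -0.12 to 0.27, and the 8 dendritic cell genes a median of -0.04. In 4 of 12 E07 mice the mean vst value of the B cell list exceeded that of the T cell list by more than in any HOCl mouse. Control mice 8 and 11 also lay above every HOCl mouse in this difference. It ran from -1.255 to 0.033 in HOCl mice, -0.479 to 0.445 in E07 mice and -1.09 to 0.151 in control mice.

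Some genes of neutrophils and monocytes were lower on the vst scale. With scaling by the total count, 0 of 16 neutrophil genes were called lower and 2 higher, and 0 of 11 classical monocyte genes lower and 1 higher. Of all 10508 genes, that scaling called 324 lower and 6561 higher. The calls of Mmp8, Cxcr4, Cd177, F13a1, Cd14 and Csf1r were lost under it. On the vst scale, of 16 neutrophil genes, 14 had negative log2 fold changes, 3 were called lower (2 without HOCl mouse 7) and 0 higher, with a median of -0.32. These were Mmp8, a granule collagenase (-0.84, SE 0.21, FDR 0.00828), the chemokine receptor Cxcr4 (-0.70, FDR 0.0332), whose call was lost in 10 of the fits that left out 1 mouse, and the surface protein Cd177 (-0.67, FDR 0.00538). Mmp8 had 9.68 to 11.99 in HOCl mice (median 10.08) and 8.65 to 9.96 in E07 mice (median 9.62). S100a8, among the most abundant neutrophil transcripts, was not called (-0.47, SE 0.23, FDR 0.186), nor was Retnlg (0.27, FDR 0.462). In the list of granule genes of immature neutrophils, 6 of 11 genes were in the table and 2 were called lower, while Cebpe, a factor of granule formation, had 0.34 (FDR 0.104) and was called higher by edgeR (0.86, FDR 0.0474). Lcn2 (-0.92, SE 0.24, FDR 0.00882) and Ltf (-0.72, FDR 0.0103), both of the secondary granules, were the lower genes. Lcn2 had 9.82 to 12.33 in HOCl mice (median 10.33) and 9.01 to 10.11 in E07 mice (median 9.81), and the highest value was that of HOCl mouse 7. Of 11 classical monocyte genes, 3 were called lower, namely F13a1, the A subunit of coagulation factor XIII (-0.88, SE 0.14, FDR 0.000171), the endotoxin co-receptor Cd14 (-0.59, FDR 0.0127) and the growth factor receptor Csf1r (-0.50, FDR 0.0204). Of 12 patrolling monocyte genes, 2 were called lower, Cd36 (-0.93), which reticulocytes and platelets also express, and Cebpb (-0.48). The call of Cebpb was lost when HOCl mouse 6, 7 or 11 or E07 mouse 7, 9 or 10 was left out. With all 6 groups of the series in one fit, the calls of Mmp8, Ltf, Cd14, Csf1r and Cebpb were lost.

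Platelet genes fell as a group by a smaller amount than red cell genes. All 18 had negative log2 fold changes on the vst scale and 15 were called lower (13 to 16 when any 1 mouse was left out), with a median of -0.50. With scaling by the total count the median was -0.01 and 0 of 18 were called, beside 324 lower and 6561 higher among all 10508 genes. Vwf, von Willebrand factor, fell by 0.83 (SE 0.16, FDR 0.000834), from a median of 11.49 (10.65 to 11.68) in HOCl to 10.28 (9.93 to 11.42) in E07 mice. The values were -0.58 for Gp5 and -0.54 for Itga2b, surface receptors of platelets. Pf4, a platelet chemokine, fell by 0.48 on the vst scale and had 0.03 with scaling by the total count. The platelet list took 0.237% to 0.84% of counts in HOCl and 0.459% to 0.701% in E07 mice.

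Part of the interferon-stimulated genes were lower. Of 24 genes, 10 were called lower (8 to 12 when any 1 mouse was left out) and 0 higher, with a median of -0.32. Scaling by the total count called 6 of them lower and 8 higher, beside 324 lower and 6561 higher among all 10508 genes. Isg15, a ubiquitin-like modifier (chromosome 4, 156283883 to 156285303), had 11.43 to 15.23 in HOCl mice (median 12.99), 10.98 to 12.24 in E07 mice (median 11.36) and 10.85 to 12.89 in control mice (median 11.24). It fell by 1.46 (SE 0.28, FDR 0.000608), and the value of 15.23 was that of HOCl mouse 7. Rsad2, the antiviral protein viperin (-1.37), Isg20, an exonuclease (-1.28), Oas3, an RNA sensor (-1.27), and Irf7, the factor that amplifies interferon (-1.17), fell by similar amounts. The red cell genes fell in the same mice by similar amounts, and their part in the values of these genes was not tested. Of 79 genes of cytosolic ribosomal proteins, 2 were called lower (0 to 3 when any 1 mouse was left out, 1 without HOCl mouse 7), Rpl41 (-0.67, FDR 0.0336) and Rps29 (-0.40, FDR 0.0167), and the median was 0.12. The call of Rpl41 was lost without any of E07 mice 8, 9, 10 and 11 and HOCl mice 4 and 5, and that of Rps29 without E07 mouse 10 or HOCl mouse 4 or 7.

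Lgals3, the gene of the galectin-3 protein that E07 binds (chromosome 14, 47605208 to 47623624), was not called. Its vst values were 10.58 to 11.38 in HOCl mice (median 11.09), 10.43 to 11.38 in E07 mice (median 10.90) and 10.58 to 11.52 in control mice (median 10.88), and the E07 to HOCl difference was -0.21 on the log2 scale (SE 0.12, FDR 0.246). An antibody acts on the protein, so the mRNA is no check of the treatment. Lgals9, a further galectin, was called lower (-0.40, FDR 0.00907), a call that was lost without HOCl mouse 7. Of the cytokines assayed in plasma by the study, 6 had enough reads for the table, and Tnf was called higher (0.39, SE 0.10, FDR 0.00983). Its counts were 0 to 126 in HOCl mice (median 26), 42 to 140 in E07 mice (median 87) and 21 to 129 in control mice (median 61), and the call was lost when any of HOCl mice 4, 7 and 11 or E07 mice 1, 5 and 12 was left out. Il1b was not called (-0.13, FDR 0.718). Il6 had a median of 1 count in HOCl and 2.5 in E07 mice, and Il5 had at most 1 count in any mouse, so that changes of these 2 genes were not detectable at this depth.

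The direction of the smaller changes depended on how the libraries were scaled. With log2 of CPM plus 1 (CPM being counts scaled to one common library total) in place of the size factors, the all-gene median of the log2 fold change shifted from 0.02 to 0.49, and limma called 6561 genes higher and 324 lower. Relative to that median, each of the 92 higher and 737 lower genes stayed on its side. The scalings differ mainly by a factor per library, which setting values against the median largely removes. That count was therefore close to fixed in advance and is no check of the scaling. In absolute terms the 92 higher genes were called again, whereas 319 of the 737 lower genes were called again and 88 had the opposite sign. The list medians under this scaling were -1.03 for the red cell membrane, -0.68 for reticulocyte maturation and -0.74 for red cell metabolism, 1.00 for B cells and 0.89 for MHC class II. The medians of 9 lists turned from negative to positive, those of galectins (0.46), dendritic cells (0.38), patrolling monocytes (0.30), cell cycle (0.20), globins (0.18), classical monocytes (0.16), neutrophils (0.08), interferon-stimulated genes (0.06) and erythroid transcription factors (0.05). Set against the median of all genes, the neutrophil list was at -0.34 with size factors and at -0.42 with the total count, the platelet list at -0.52 and -0.51, the B cell list at 0.39 and 0.51, and the T cell list at 0.06 and 0.10. For the same reason the nearness of these paired values is a description and no check of the scaling.

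**Figure D4:**
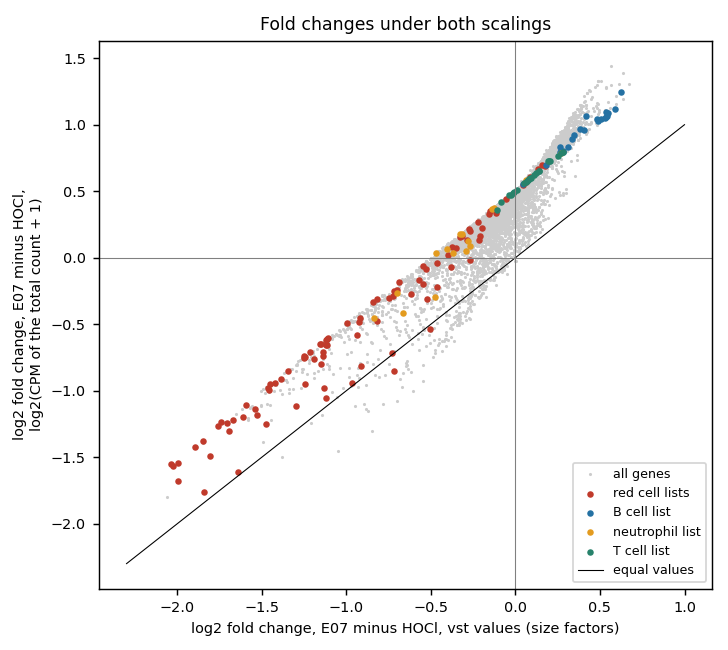
Log2 fold change (E07 minus HOCl) of the 10508 genes on vst values, which rest on size factors (horizontal axis), and on log2 of CPM of the total count plus 1 (vertical axis), with the red cell, B cell, neutrophil and T cell lists in colour; the diagonal marks equal values. The cloud lies above the diagonal, its median being 0.02 on the horizontal and 0.49 on the vertical axis, and the B cell genes keep positive values on both.

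Outside the table of normalised values, edgeR tested 2581 genes on the counts, mostly noncoding RNAs and genes with few counts. Of these, 37 were called higher and 106 lower. Both are smaller shares than the 2.82% higher and 7.27% lower among all 12793 genes that edgeR tested. Redrum, a long noncoding RNA of erythroid cells, had 1216 to 2586 counts (median 1690.5) in HOCl mice, 313 to 1270 in E07 mice (median 615.5) and 330 to 1237 in control mice (median 1004). It fell by 1.96 on the log2 scale (SE 0.26, FDR 4.53e-05, edgeR). The next lower genes with at least 10 counts in every HOCl mouse were C430002N11Rik (-1.89), Gm17344 (-1.82), the RNA-binding protein gene Cpeb3 (-1.73) and Gm16437 (-1.71). The floor of 10 counts was set in the group with the higher level only, so the genes picked by it had to differ and their values are a description. The higher genes with at least 10 counts in every E07 mouse were led by Gm10561, with 0 to 28 counts (median 14) in HOCl and 10 to 90 in E07 mice (median 43) (1.64 on the log2 scale). BC037704 (1.37), Reps2 (1.32), Gm10531 (1.24) and Gm15848 (1.04) followed. Of the list members in this set, Vcan, a proteoglycan of classical monocytes, fell by 1.49 (FDR 0.00111, edgeR), from a median of 83 to 36 counts.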

How the data were processed

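Terminal blood RNA was poly A selected and globin depleted, made into strand-specific TruSeq libraries and sequenced on a NovaSeq. The authors trimmed reads with Cutadapt, aligned them to mm39 with STAR and counted them with featureCounts, and the strand setting of the counting is not given in the sources used here. They deposited raw counts of 55416 genes in 71 mice, and vst values on a log2-like scale of 10508 genes in 70 mice, from which non-coding and low genes had been removed.

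From the vst values, E07 and HOCl mice were compared with limma 3.58.1 under R 4.3.3, calling genes with an FDR up to 0.05 and a change of 1.3-fold or more. From the counts, they were compared with edgeR 4.0.16 (quasi-likelihood, TMM, filterByExpr) and, as an alternative, DESeq2 1.42.0. Fold changes on the vst scale understate changes of genes with few counts. Total counts were 11932855 to 15222080 per mouse in these groups. Intervals of shares are 95% Wilson intervals and cover counting error only. p-values measure the spread between separate mice.

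Groups came from the sample titles. The mice titled CTRL carry the genotype label HOCL and the treatment label none, and were taken as the PBS control group from their titles. Genes were named by a fixed rule, namely Lgals3, the first 15 genes by fold change in each direction and members of 26 gene lists. The rule also named the 5 higher and 5 lower genes outside the vst table with at least 10 counts in every mouse of the higher group. Outside the rule, 4 genes whose groups did not overlap were named after their values were seen. AU041133 and Rhebl1 were likewise named after their edgeR values were seen. The comparison, the lists and the motifs were chosen with earlier results of these data known, so no set test was run. Alternatives were other scalings, filters, thresholds and tools, all groups in one fit, and leaving out each mouse. The scripts were tested on simulated data. The other treatment groups were not used except in fits of all groups. Some genes that the rule names are not reported here.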

Additional observations from a re-analysis of the deposited data

How the results depend on the processing

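Limma called 92 genes higher and 737 lower. The number of higher genes was 533 with the FDR alone, 57 at an FDR of 0.01, 55 with all 6 groups in one fit and 6561 with scaling by the total count, under which 324 genes were lower. edgeR called 361 higher and 930 lower, which became 6146 and 370 without normalisation factors and 748 and 1640 without a filter. DESeq2 called 309 higher and 1119 lower. Leaving out 1 mouse gave 70 to 113 higher and 668 to 805 lower genes with limma, and 261 to 444 and 805 to 1025 with edgeR. Without HOCl mouse 7, limma called 10 B cell and 0 plasma cytokine genes higher. The numbers called lower were then 5 for heme synthesis, 5 for cell cycle, 9 for interferon-stimulated genes and 16 for platelets. They were 4 for classical and 1 for patrolling monocytes, 2 for neutrophils, 1 for ribosomal proteins and 0 for galectins. Mouse numbers do not mark shared animals. Deviations of same-numbered mice correlated at a mean of 0.0556 over 11 pairs, 3 of which correlated best with their own number, and a replicate block gave 94 higher and 705 lower genes with limma and 392 and 809 with edgeR.

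Of 117 named genes, AU041133 and Rhebl1 not among them, 95 were called and 57 of these kept call and direction in every fit. With scaling by the total count, the log2 fold change changed sign for Lgals3 (0.29), Lgals9 (0.079), Slc2a1 (0.34), Ppox (0.074), Hba-a1 (0.16), Hbb-bs (0.35), Tfrc (0.33), Gata1 (0.017), Xbp1 (0.37), S100a8 (0.035), Pf4 (0.028), Il1b (0.38) and Rps29 (0.11). With edgeR it changed for Hba-a1 (0.15), Hbb-bs (0.19), Tfrc (0.007) and Pax5 (-0.13), with DESeq2 for Hba-a1 (0.12), Hbb-bs (0.15) and Pax5 (-0.16), and with edgeR and the replicate block for Slc2a1 (0.008), Tfrc (0.011) and Pax5 (-0.032). Leaving out 1 mouse gave -0.348 to 0.027 for Tfrc, positive without HOCl mouse 7, and -0.024 to 0.096 for Pax5, negative without HOCl mouse 7 or 12. With all 6 groups in one fit, Cd79a, Cd79b, Ighd, Fcer2a, Cd22, Blk, Igkc, Iglc1, H2-Aa and Il5ra were no longer called higher. In that fit Gata1, Csf1r, Cd14, Cebpb, Mmp8, Ltf, Hdc, Pf4 and Rps29 were no longer called lower. Scaling by the total count also lost the calls of Nfe2, Tal1, Fth1, Ftl1, Bnip3l, Psme4, H2bc4, H1f2, Hdc, Cebpb and Rpl41. The causes were not tested. The values of Tnfrsf17, Igkv1-122 and Tnf rest on few counts.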
